A study of Sus scrofa with 12 samples.

Results

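Complex III, complex IV and ATP synthase are the later stations of mitochondrial respiration, and the genes of their nuclear-encoded subunits are described here in longissimus dorsi, the long muscle of the pig's back. The members are the rows of the deposited table whose gene name is CYC1 or begins with UQCR, with COX followed by a digit from 4 to 8, or with ATP5. This rule found 36 of the 23271 listed genes, 8 of complex III, 15 of complex IV and 13 of ATP synthase. Not every subunit of these complexes is among them, and the subunits encoded by the mitochondrial genome were not analysed here. Poly(A) RNA was sequenced from 6 libraries of Laiwu pigs, a Chinese breed known for fatty muscle, and from 6 libraries of Yorkshire pigs, a lean Western breed, all described as of equal weight. Sex, age and treatment are not in the labels used here, and nothing in them says that the libraries come from separate animals.

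Complex III passes electrons from ubiquinol to cytochrome c and pumps protons across the inner mitochondrial membrane. Complex IV, cytochrome c oxidase, takes those electrons to oxygen and pumps protons as well, and ATP synthase uses the proton gradient to make ATP. Several subunits exist in more than 1 form. COX6A2 and COX7A1 are the forms of heart and skeletal muscle, while COX6A1 and COX7A2 are the forms of liver and most other tissues, and type I and IIA muscle fibres are known to hold more mitochondria than the fast glycolytic fibres that fill most of the pig's longissimus.

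The libraries held 54961358 to 67285809 counts. Of the skeletal muscle markers listed for this comparison (ACTA1, CKM, DES, TTN and MYLPF), 4 of 5 were in the table and all 4 were tested, with a summed level of 48210 to 66221 FPKM in Laiwu and 50804 to 68684 FPKM in Yorkshire (FPKM is the count per kilobase of gene model, scaled to the library's total). Of the liver markers, ALB and TF averaged under the 0.5 FPKM needed for testing, while the mean of APOA1 was 4.04 FPKM for Laiwu and 5.70 FPKM for Yorkshire. One library stood apart: the deviation of Yorkshire 5 from the mean of the 12 ran with gene length across all tested genes at a Spearman's rho of -0.43, where the other 11 libraries lay between -0.12 and 0.18. Values without it are given where they moved a result.

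No member of the 3 complexes passed the test between the breeds. Of the 35 tested members, 0 had an adjusted p under 0.05 by edgeR's quasi-likelihood test, where the share of all 11205 tested genes called was 0%. The fitted log2 fold change (Laiwu minus Yorkshire) was below 0 for 28 of the 35 and above 0 for 7, against 50.3% below 0 among all tested genes, and the median was -0.15. The fitted values ran from -0.53 for ATP5ME to 0.18 for UQCRC2, and 1 member reached an absolute value of 0.5. At an unadjusted p under 0.05 stood 4 members, COX6A2, COX7A1, UQCR10 and ATP5ME, all fitted below 0, where 2.30% of all tested genes met that p with Laiwu lower and 4.44% in either direction. The other tool run on counts, DESeq2, also called 0 members (1 gene in all). It had 4 members at an unadjusted p under 0.05, against 569 of all 11195 genes with a p by that tool. The libraries of the breeds overlapped for every tested member, and 0 of 35 were separated, against 0.17% of all tested genes. The member that was not tested, COX6B2, the testis form of a complex IV subunit, had 13 counts in all 12 libraries together.

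The number of members fitted below 0 was 22 of 35 without Yorkshire 5, with a median of -0.06, and 25 of 35 with a curve for gene length fitted per library, with a median of -0.07. With both changes at once it was 19 of 35, with a median of -0.02. Of all 11205 tested genes, 5656, 5733 and 5774 were below 0 in these 3 settings. The number of members at an unadjusted p under 0.05 by edgeR was 1 without Yorkshire 5, Yorkshire 1 or Laiwu 4. It was 2 without Laiwu 1 or Laiwu 5, 6 without Laiwu 6 or Yorkshire 3, and 8 without Yorkshire 2. With the curve for gene length it was 1, and with both changes at once 0. Among all 11205 tested genes it was 443 with the curve and 286 with both changes. With 1 library left out it ran from 284 without Laiwu 3 to 656 without Yorkshire 2. It was 293 without Yorkshire 5, 468 without Yorkshire 1, 434 without Laiwu 4, 483 without Laiwu 1 and 521 without Laiwu 5. Without Laiwu 6 and without Yorkshire 3 it was 430 and 535.

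**Figure D1:**
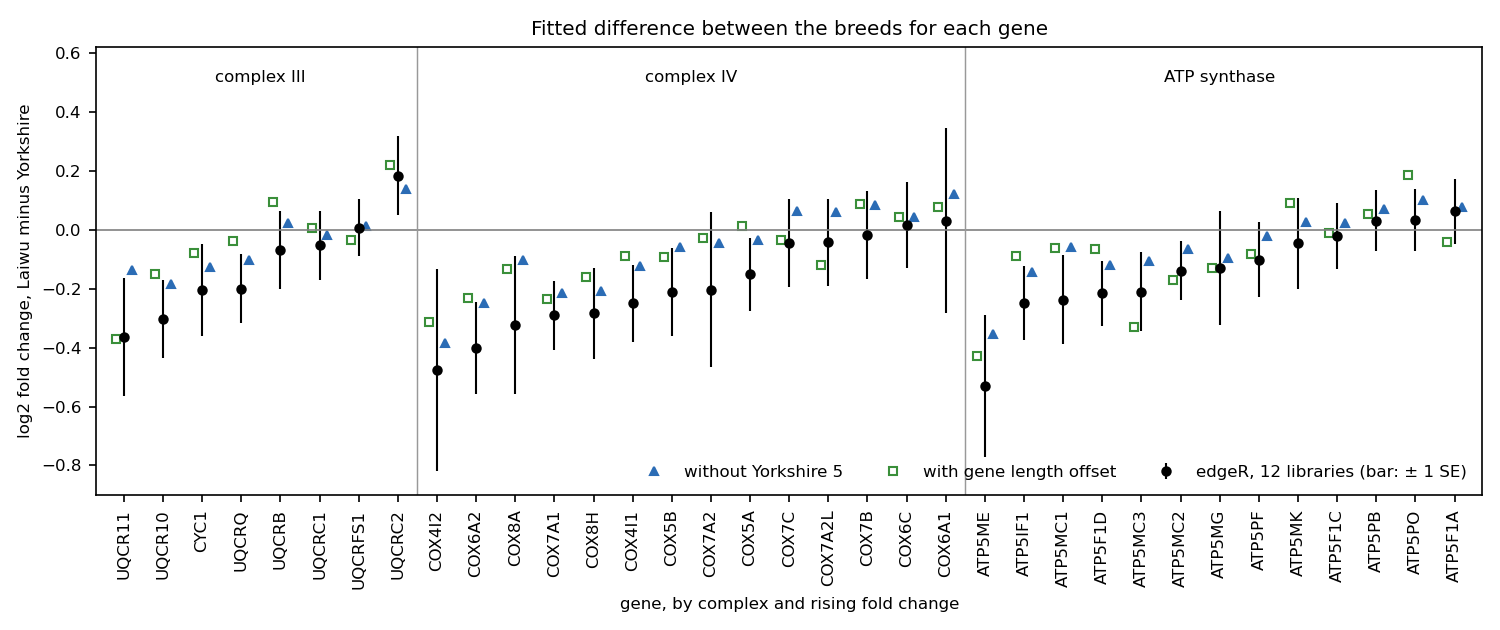
Fitted log2 fold change of each tested gene, Laiwu minus Yorkshire, by complex (black points with 1 standard error, 12 libraries), with the value without Yorkshire 5 (blue triangles) and with a gene length offset (green squares). Most black points lie below 0 and most triangles lie nearer to 0, the lowest black point is ATP5ME at -0.53 and the highest is UQCRC2 at 0.18.

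In complex III, 7 of the 8 members averaged between 25.8 and 72.7 FPKM. The core subunits UQCRC1 and UQCRC2, which hold the complex together on its matrix side, averaged 72.7 and 47.3 FPKM over the 12 libraries, and the catalytic subunits CYC1 (cytochrome c1) and UQCRFS1 (the Rieske iron-sulfur protein) 71.8 and 25.8 FPKM. Of the small subunits, UQCRQ averaged 54.4, UQCRB 45.2 and UQCR10 26.5 FPKM. UQCR11 stood far below at 1.65 FPKM, and its gene lies across MBD3 on the same strand, a gene with a mean of 21866 counts against 384 for UQCR11, so the division of reads between them is uncertain.

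UQCRC1 (ENSSSCG00000011356, chromosome 13, 31298449 to 31309516, coordinates of the deposited table) read 55.01, 69.7 and 85.5 FPKM in the Laiwu libraries (lowest, median and highest of 6) and 59.5, 75.7 and 81.7 FPKM in the Yorkshire ones. The breeds overlapped almost fully, and the log2 fold change was -0.05 ± 0.12 (SE; edgeR adjusted p = 0.967), with a sign that turned with the gene length offset or without Laiwu 4. CYC1 (ENSSSCG00000031918, chromosome 4, 606516 to 608996) read 48.5, 64.0 and 98.7 FPKM in the Laiwu libraries and 62.5, 75.4 and 91.5 FPKM in the Yorkshire ones. Laiwu held both its extremes, Laiwu 4 the lowest and Laiwu 6 the highest of the 12 libraries, and the log2 fold change was -0.20 ± 0.16 (edgeR adjusted p = 0.912), or -0.13 without Yorkshire 5.

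UQCR10, a small subunit next to cytochrome c1 (ENSSSCG00000024550, chromosome 14, 46783325 to 46786140), had the smallest p of complex III. It read 21.6, 23.2 and 27.0 FPKM in the Laiwu libraries and 21.0, 29.3 and 38.5 FPKM in the Yorkshire ones. Yorkshire 2 was the lowest library of all and Yorkshire 5 the highest. The log2 fold change was -0.30 ± 0.13 (edgeR adjusted p = 0.912, unadjusted 0.0366), -0.18 without Yorkshire 5 and -0.15 with the gene length offset. UQCRC2 (ENSSSCG00000007845, chromosome 3, 24197747 to 24228832) lay the other way, with 38.6, 47.1 and 63.1 FPKM in the Laiwu libraries and 34.8, 45.1 and 49.4 FPKM in the Yorkshire ones, a log2 fold change of 0.18 ± 0.13 (edgeR adjusted p = 0.912), or 0.14 without Yorkshire 5. Laiwu 6 and Laiwu 3 were the highest libraries, and Yorkshire 5, the highest for UQCR10, was the lowest for UQCRC2. The gene overlaps PDZD9 on the opposite strand, listed at a mean of 40.5 FPKM, and the sources used here do not say if counting kept the strands apart.

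Complex IV spanned the widest range of levels. COX4I1, the common form of the largest nuclear-encoded subunit, was the most abundant of all members at a mean of 164 FPKM. Within complex IV COX5A came next at 112 FPKM, so that these 2 held 66.6% of the summed FPKM of its 15 members. Below them came COX6A2 at 31.0, COX8H at 27.2, COX5B at 18.8, COX7B at 18.1 and COX8A at 10.1 FPKM. COX7C, COX6C, COX7A1 and COX7A2 lay between 9.55 and 5.43 FPKM. COX4I2, the form of subunit 4 found in lung, COX7A2L, a factor that helps join complexes III and IV into supercomplexes, and COX6A1 were lowest among the tested members, at 1.72, 1.303 and 1.03 FPKM. These levels depend on the gene model: the length taken from count over FPKM was 345 bp for COX8H, 565 bp for COX7A2, 2387 bp for COX7A1 and 2669 bp for COX6A1.

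**Figure D2:**
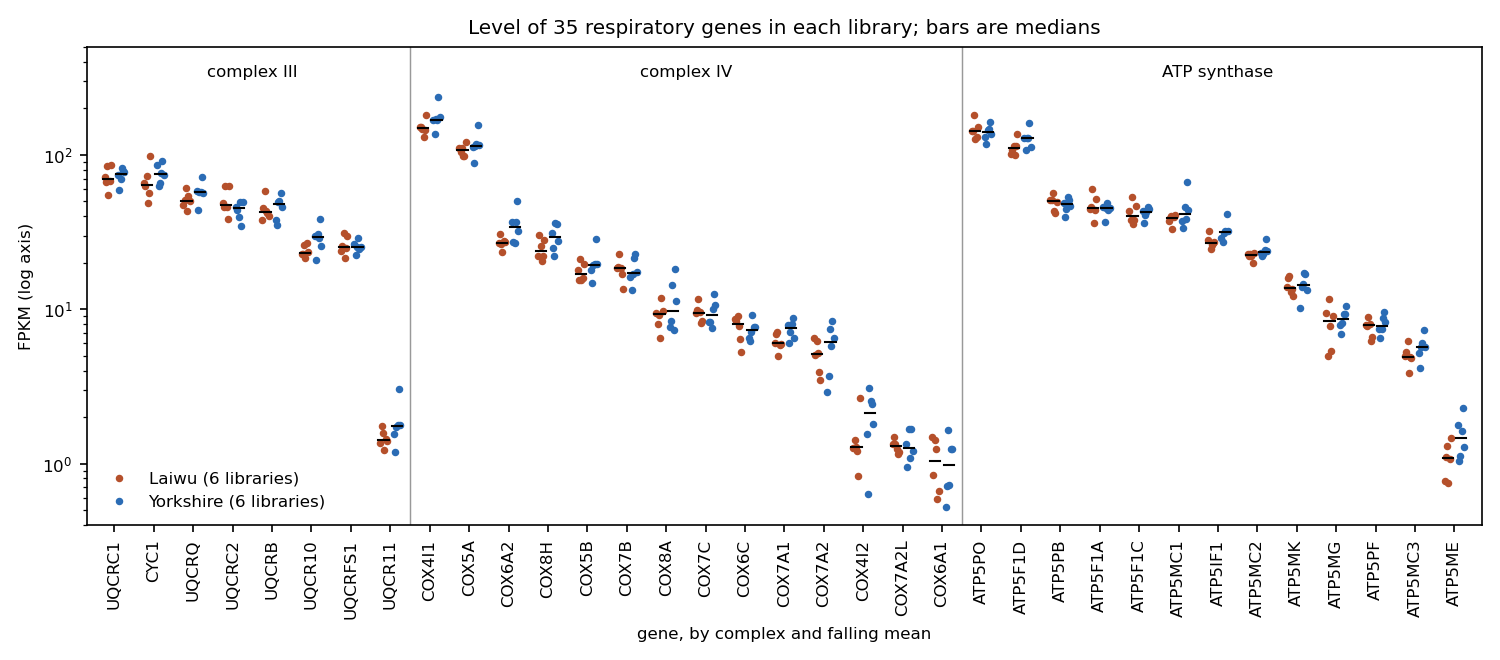
FPKM of each of the 35 tested genes (log axis) in the 6 Laiwu (red) and 6 Yorkshire (blue) libraries, ordered by complex and by falling mean, with bars at the breed medians. COX4I1, ATP5PO, ATP5F1D and COX5A stand above 100 FPKM in mean level, UQCR11, COX4I2, COX7A2L, COX6A1 and ATP5ME below 2 FPKM, and the breeds overlap for every gene.

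COX4I1 (ENSSSCG00000029034, chromosome 6, 3131019 to 3137530) read 131, 149 and 182 FPKM in the Laiwu libraries and 137, 169 and 238 FPKM in the Yorkshire ones. The 238 FPKM of Yorkshire 5 was the highest value of any member in any library, and the next Yorkshire library stood at 176 FPKM. The log2 fold change of COX4I1 was -0.25 ± 0.13 (edgeR adjusted p = 0.912), or -0.12 without Yorkshire 5. COX5A, a matrix-side subunit (ENSSSCG00000024316, chromosome 7, 58622964 to 58644021), read 97.9, 107 and 122 FPKM in the Laiwu libraries and 88.4, 115 and 155 FPKM in the Yorkshire ones, again with Yorkshire 2 lowest and Yorkshire 5 highest. Its log2 fold change was -0.15 ± 0.12 (edgeR adjusted p = 0.912), -0.03 without Yorkshire 5 and 0.01 with the gene length offset. COX6C (ENSSSCG00000060790, chromosome 4, 37074649 to 37091849) had the highest fitted value among complex IV members of at least 5 FPKM. It read 5.31, 8.04 and 9.08 FPKM in the Laiwu libraries and 6.18, 7.38 and 9.22 FPKM in the Yorkshire ones, a log2 fold change of 0.02 ± 0.15 (edgeR adjusted p = 0.992), or 0.04 without Yorkshire 5. Leaving out Laiwu 1, 2 or 3 or Yorkshire 1, 2 or 3 turned its sign, to -0.041 at the lowest, and the gene overlaps VPS13B on the opposite strand.

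The muscle forms COX6A2 and COX7A1 had the smallest unadjusted p of all members, and neither passed. COX6A2 (ENSSSCG00000036789, chromosome 3, 17133476 to 17135104) read 23.4, 26.9 and 30.7 FPKM in the Laiwu libraries and 27.0, 34.3 and 50.2 FPKM in the Yorkshire ones. The Yorkshire libraries 1, 4, 5 and 6 stood above every Laiwu library, while Yorkshire 2 and Yorkshire 3 lay inside the Laiwu range. The log2 fold change was -0.40 ± 0.16 (edgeR adjusted p = 0.912, unadjusted 0.0212), -0.25 without Yorkshire 5 and -0.23 with the gene length offset. COX7A1 (ENSSSCG00000037792, chromosome 6, 45517229 to 45520713) read 4.97, 6.005 and 7.14 FPKM in the Laiwu libraries and 6.04, 7.54 and 8.80 FPKM in the Yorkshire ones. All 6 Laiwu libraries lay under the Yorkshire median, and the ranges still overlapped. The log2 fold change was -0.29 ± 0.12 (edgeR adjusted p = 0.912, unadjusted 0.0275), -0.22 without Yorkshire 5 and -0.23 with the offset. COX7A1 overlaps CAPNS1 on the opposite strand, a gene with a mean of 3584 counts against 1016 for COX7A1.

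Their counterparts of other tissues were more uneven within each breed. COX6A1 (ENSSSCG00000039265, chromosome 14, 40408631 to 40412870) read 0.590, 1.05 and 1.48 FPKM in the Laiwu libraries and 0.520, 0.982 and 1.64 FPKM in the Yorkshire ones. It rests on 91 to 265 counts a library and overlaps an unnamed gene of 2674 mean counts on the opposite strand. Each breed held libraries at both ends, the log2 fold change was 0.03 ± 0.31 (edgeR adjusted p = 0.993), and leaving out Laiwu 1, 3 or 4 or Yorkshire 1, 2 or 4 turned its sign, to -0.12 at the lowest. COX7A2 (ENSSSCG00000004480, chromosome 1, 90696698 to 90703409) read 3.49, 5.12 and 6.50 FPKM in the Laiwu libraries and 2.91, 6.17 and 8.38 FPKM in the Yorkshire ones, where Yorkshire 1 was lowest and Yorkshire 5 highest. Its log2 fold change was -0.20 ± 0.26 (edgeR adjusted p = 0.923). It was -0.05 without Yorkshire 5, -0.34 without Yorkshire 1 and -0.03 with the gene length offset. The SD of log2 CPM (counts scaled to library size with TMM) within breeds was 0.60 for COX6A1 and 0.49 for COX7A2, against 0.28 for COX6A2 and 0.19 for COX7A1. The median over the 35 tested members was 0.24 and over all tested genes 0.29.

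The ratio of a muscle form to its counterpart within a library is free of any single scale factor of that library, but not of a deviation that runs with gene length, and the paired genes differ in length. The ratios were not computed with the gene length offset. COX6A2 stood at 18.0, 27.6 and 46.8 times the FPKM of COX6A1 in Laiwu (lowest, median and highest) and at 16.5, 39.2 and 70.4 times in Yorkshire. The mean log2 ratio of counts was 3.07 ± 0.64 (SD, n = 6) in Laiwu and 3.47 ± 0.73 (SD, n = 6) in Yorkshire, which did not pass a two-sided exact permutation test (p = 0.329, adjusted over 5 pairs 0.806). COX7A1 stood at 0.928, 1.26 and 1.71 times the FPKM of COX7A2 in Laiwu and at 0.959, 1.22 and 2.72 times in Yorkshire. The level of this FPKM ratio depends on the gene models, of 2387 bp for COX7A1 and 565 bp for COX7A2. In counts its mean log2 ratio was 2.38 ± 0.35 (SD, n = 6) in Laiwu and 2.52 ± 0.57 (SD, n = 6) in Yorkshire. Yorkshire 1 had the highest ratio for both pairs, without which the difference in the mean log2 ratio of COX7A1 to COX7A2 turned from -0.14 (exact permutation p = 0.645, adjusted 0.806) to 0.06. Without Yorkshire 5 it was -0.21, and that of COX6A2 to COX6A1 was -0.37. The latter was -0.40 with all libraries, -0.21 without Yorkshire 1 and -0.63 without Yorkshire 3. For COX8H, whose symbol marks the heart form of subunit 8, and COX8A, a pair added after the values were seen and not tested, the medians were 2.84 in Laiwu and 2.72 in Yorkshire. COX4I2 stood at 0.00459 to 0.0181 times the FPKM of COX4I1 over the 12 libraries, with a difference in mean log2 ratio of -0.19 (exact permutation p = 0.548, adjusted 0.806), which was -0.42 without Yorkshire 2 and -0.03 without Yorkshire 3. With 6 libraries against 6, the smallest p the exact test can give is 0.00216.

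**Figure D3:**
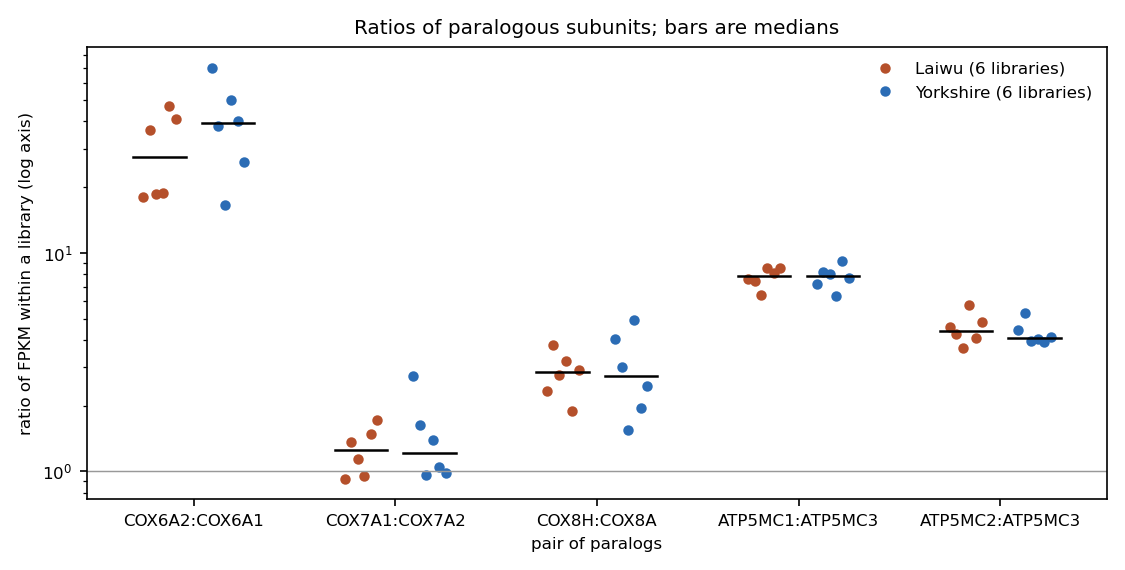
Ratio of FPKM of paralogous subunits within each library (log axis) for 5 pairs, in 6 Laiwu (red) and 6 Yorkshire (blue) libraries, with bars at the breed medians. COX6A2 stands at least 16.5 times above COX6A1 in every library, COX7A1 lies between 0.928 and 2.72 times COX7A2, and the breeds overlap for every pair. The levels of these FPKM ratios depend on the lengths of the gene models.

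The 2 muscle forms varied together over the libraries. COX6A2 and COX7A1 correlated at a Pearson's r of 0.89 (permutation p = 8.0e-05, adjusted over 3 relations 2.4e-04) and a Spearman's rho of 0.85 (permutation p = 8.4e-04, adjusted 0.00252) over the 12 libraries. Without Yorkshire 1 and Yorkshire 5, the libraries farthest from the median of COX6A2, r was 0.74 (permutation p = 0.0138). Within Yorkshire r was 0.95 (exact permutation p = 0.00278, n = 6), and within Laiwu 0.64 (exact permutation p = 0.168, n = 6), so the relation did not pass in Laiwu alone. Both were measured in the same libraries and share their depth and scaling.

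Among the other members, the one closest to COX6A2 by Spearman's rho over the 12 libraries was COX8H at 0.90, and to COX7A1 it was COX6A2, followed by COX8H at 0.84. COX8H overlaps PSMD13 on the opposite strand, a gene with a mean of 4838 counts against 590.2 for COX8H. Least alike were COX6A1 at -0.28 and UQCRC2 at -0.15 for COX6A2, and UQCRC2 at -0.22 and COX6A1 at -0.03 for COX7A1. These members are the extremes of 34, so no test is given. Chosen after their values were seen, the forms of other tissues COX6A1 and COX7A2 ran together at a rho of 0.85, and at 0.88 without Yorkshire 5. COX8A, the liver form of subunit 8, ran less closely with them, at 0.41 with COX6A1 (0.35 without Yorkshire 5) and 0.52 with COX7A2 (0.37 without Yorkshire 5). Each muscle form followed its own counterpart less closely, at -0.28 for COX6A2 with COX6A1, 0.29 for COX7A1 with COX7A2 and -0.09 for COX8H with COX8A. Without Yorkshire 5 these values were -0.44, 0.07 and -0.42.

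**Figure D4:**
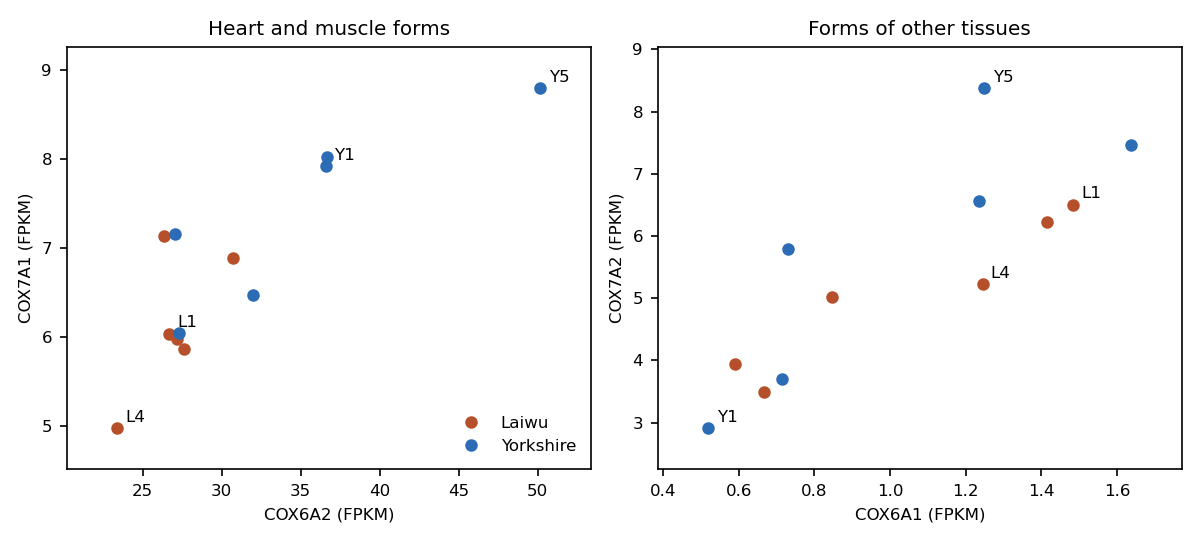
FPKM of COX7A1 against COX6A2 (left) and of COX7A2 against COX6A1 (right) in the 6 Laiwu (red) and 6 Yorkshire (blue) libraries, with libraries 1 and 4 of Laiwu and 1 and 5 of Yorkshire marked. Yorkshire 5 is the highest for COX6A2, at 50.2 FPKM, and for COX7A2, at 8.38 FPKM, while Yorkshire 1 is high for both muscle forms and lowest for both other forms.

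The slow myosin heavy chain MYH7, the contractile marker of type I fibres, did not pass with either muscle form over the 12 libraries. Pearson's r was 0.36 with COX6A2 (permutation p = 0.226, adjusted 0.237) and 0.37 with COX7A1 (permutation p = 0.237, adjusted 0.237), and Spearman's rho was 0.46 (permutation p = 0.134, adjusted 0.201) and 0.32 (permutation p = 0.309, adjusted 0.309). Laiwu 1 and Laiwu 4 had the least MYH7, and without them r was 0.29 and -0.01. Within Yorkshire r was 0.75 for COX6A2 (exact permutation p = 0.0931, n = 6) and 0.82 for COX7A1 (exact permutation p = 0.0472, n = 6, not adjusted), and within Laiwu 0.18 and 0.11 (exact permutation p = 0.724 and 0.821, n = 6). Spearman's rho within Yorkshire was 0.94 for COX6A2 (exact permutation p = 0.0167, n = 6, not adjusted) and 0.89 for COX7A1 (exact permutation p = 0.0333, n = 6, not adjusted), and within Laiwu 0.14 and -0.03 (exact permutation p = 0.803 and 1, n = 6). Over 11 libraries without Yorkshire 5, r was 0.28 with COX6A2 and 0.29 with COX7A1. Whether the relation differs between the breeds was not tested.

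ATP synthase was led by ATP5PO, the stalk subunit that ties the catalytic head to the membrane part, at a mean of 143 FPKM, and ATP5F1D, a subunit of the rotating central stalk, at 120 FPKM. The stalk subunit ATP5PB and the head and central stalk subunits ATP5F1A and ATP5F1C averaged 48.2, 45.6 and 42.4 FPKM. ATP5F1A had the most counts of any member, a mean of 23147, on a gene model of 8078 bp. The membrane subunits ATP5MK, ATP5MG and ATP5ME and the stalk subunit ATP5PF were lower, at 14.3, 8.34, 1.298 and 7.78 FPKM.

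ATP5PO (ENSSSCG00000012042, chromosome 13, 197509331 to 197519588) read 127, 143 and 181 FPKM in the Laiwu libraries and 118, 140 and 164 FPKM in the Yorkshire ones. Laiwu 3 was the highest and Yorkshire 2 the lowest library, and the log2 fold change was 0.03 ± 0.11 (edgeR adjusted p = 0.977). It was -0.03 without Laiwu 3, 0.10 without Yorkshire 5 and 0.18 with the gene length offset. ATP5F1D (ENSSSCG00000035532, chromosome 2, 77216436 to 77222632) read 99.9, 111 and 136 FPKM in the Laiwu libraries and 108, 129 and 160 FPKM in the Yorkshire ones. Of the 6 Laiwu libraries, 5 lay under the Yorkshire median, and the log2 fold change was -0.22 ± 0.11 (edgeR adjusted p = 0.912), or -0.12 without Yorkshire 5 and -0.07 with the gene length offset. ATP5F1A (ENSSSCG00000004499, chromosome 1, 95733090 to 95750841) read 36.1, 45.1 and 59.9 FPKM in the Laiwu libraries and 36.5, 45.1 and 48.8 FPKM in the Yorkshire ones, so the medians were alike. Its log2 fold change was 0.06 ± 0.11 (edgeR adjusted p = 0.950), or 0.08 without Yorkshire 5 and -0.04 with the offset.

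ATP5IF1, the inhibitor that stops the enzyme from running backwards and splitting ATP (ENSSSCG00000027072, chromosome 6, 85307189 to 85309215), had the lowest fitted value among ATP synthase members of at least 5 FPKM. It read 24.7, 27.0 and 32.3 FPKM in the Laiwu libraries and 27.1, 31.7 and 41.3 FPKM in the Yorkshire ones. The log2 fold change was -0.25 ± 0.13 (edgeR adjusted p = 0.912), -0.14 without Yorkshire 5 and -0.09 with the offset. ATP5ME (ENSSSCG00000023903, chromosome 8, 110605 to 113510) had the lowest fitted value of all members and rests on 91 to 265 counts a library. It read 0.752, 1.09 and 1.47 FPKM in the Laiwu libraries and 1.03, 1.46 and 2.28 FPKM in the Yorkshire ones, a log2 fold change of -0.53 ± 0.24 (edgeR adjusted p = 0.912, unadjusted 0.0446) and -0.35 without Yorkshire 5.

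The genes ATP5MC1, ATP5MC2 and ATP5MC3 encode the same mature subunit c, of which the membrane ring of the enzyme is built. They averaged 41.3, 23.1 and 5.34 FPKM. ATP5MC1 stood at 6.44, 7.81 and 8.56 times the FPKM of ATP5MC3 in Laiwu and at 6.34, 7.84 and 9.14 times in Yorkshire, the narrowest of the tested ratios. The difference in mean log2 ratio of counts was 0.003 (exact permutation p = 0.978, adjusted 0.978). ATP5MC2 stood at 3.68, 4.41 and 5.75 times ATP5MC3 in Laiwu and at 3.89, 4.08 and 5.33 times in Yorkshire (difference 0.07, exact permutation p = 0.556, adjusted 0.806). The order of the 3 genes was thus the same in every library, while the breeds were not separated by it. Without Yorkshire 5 the differences were 0.05 for ATP5MC1 and 0.04 for ATP5MC2.

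The 3 complexes were then set side by side. The median log2 fold change was -0.13 over 8 tested members of complex III (6 below 0), -0.21 over 14 of complex IV (12 below 0) and -0.13 over 13 of ATP synthase (10 below 0), against -0.001 over all tested genes. Without Yorkshire 5 these medians were -0.06, -0.05 and -0.06, so the larger value of complex IV was no longer there. With the gene length offset they were -0.04, -0.09 and -0.07, and complex IV stayed the farthest from 0. That of ATP synthase was -0.05 without Laiwu 5. No test of the difference between complexes was made. The members' summed FPKM in complex III was 280, 320 and 399 in Laiwu and 290, 358 and 400 in Yorkshire (lowest, median and highest). For complex IV it was 345, 392 and 429 in Laiwu and 341, 428 and 592 in Yorkshire, where the second highest Yorkshire library stood at 445. For ATP synthase it was 456, 511 and 598 in Laiwu and 453, 533 and 648 in Yorkshire. In bulk tissue, fewer fibres of a kind and less RNA per fibre cannot be told apart.

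The complexes were then compared library by library. The median deviation of the members from their mean over the 12 libraries, in log2 CPM, was highest in Yorkshire 5, at 0.45 for complex III, 0.53 for complex IV and 0.39 for ATP synthase. Yorkshire 6 followed for complexes III and IV, at 0.16 and 0.17. The lowest values were those of Laiwu 4 for complex III, at -0.27, and of Laiwu 5 for complex IV and ATP synthase, at -0.22 and -0.17. Yorkshire 5 was the highest of the 12 libraries for 27 of 35 tested members, or 77.1%, against 22.0% of all tested genes, and Laiwu 4 was the lowest for 16 of 35, against 6.69%.

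**Figure D5:**
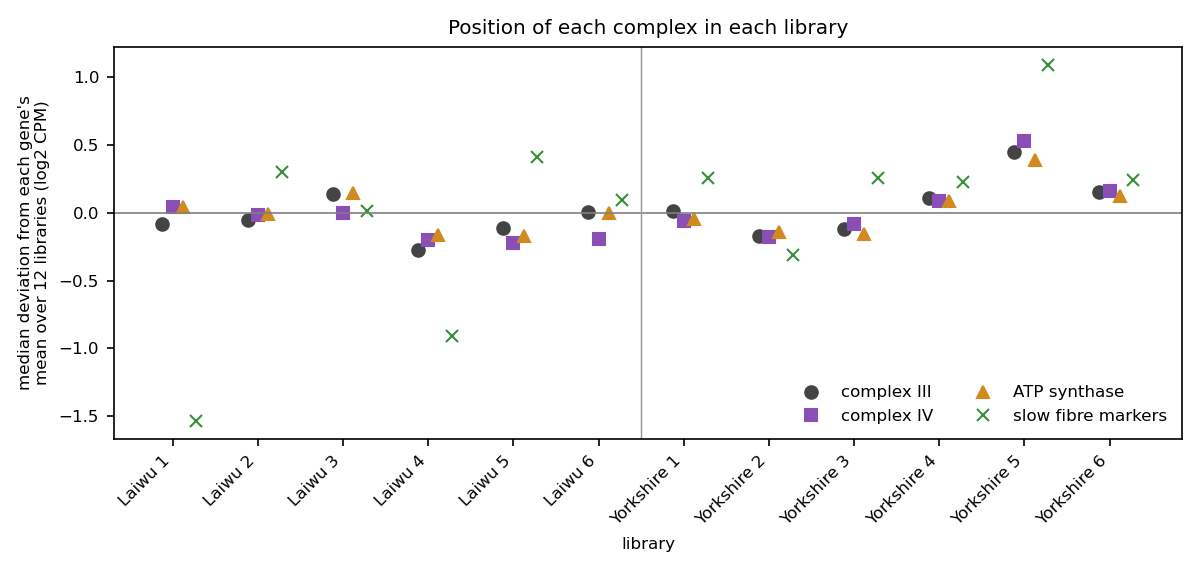
Median deviation of the tested members of each complex, and of 9 slow fibre markers, from each gene's mean over the 12 libraries (log2 CPM), by library. Complexes lie between -0.27 and 0.53 and are highest in Yorkshire 5, and the slow fibre markers run from -1.54 in Laiwu 1 to 1.09 in Yorkshire 5.

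The members differed by the length of their gene model. Of 19 tested members with a gene model under 2000 bp, 18 were fitted below 0 (94.7%), against 71.3% of 2335 tested genes that short. Yorkshire 5 was the highest library for 18 of these 19, against 1074 of the 2335. Of 16 longer members, 10 were below 0 (62.5%), against 44.7% of 8870. Yorkshire 5 was highest for 9 of these 16, against 1393 of the 8870. The median deviation of Yorkshire 5 was 0.57 in the shorter and 0.33 in the longer members, and 0.39 and -0.07 in all tested genes of those lengths. Slow fibre markers (9 tested of 11) were high in Yorkshire 5 as well, at a median deviation of 1.09, and low in Laiwu 1 and Laiwu 4, at -1.54 and -0.91, while the members stood at 0.03 in Laiwu 1 and -0.23 in Laiwu 4. Over these markers the log2 fold change had a median of -0.45, or -0.27 when Yorkshire 5 was left out. The part of fibre make-up in the members' values was not tested.

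Of the other marker lists, 0 genes passed the test. The median log2 fold change was -0.14 for 9 fast fibre markers and -0.12 for the 4 skeletal muscle markers. It was 0.98 for 7 adipocyte markers and 0.34 for 5 fibroblast and fibro-adipogenic markers, all fitted above 0. Of the adipocyte markers 6 had an unadjusted p under 0.05, and the list had a summed level of 80.3 to 254 FPKM in Laiwu and 69.1 to 133 FPKM in Yorkshire. The median was 0.03 for 4 endothelial, -0.19 for 4 smooth muscle and -0.18 for 4 macrophage markers. The erythroid, heart and liver lists had 1 tested gene each, HBB at 0.24, MYH6 at -0.41 and APOA1 at -0.53 (edgeR unadjusted p = 0.0402 for APOA1). Without Yorkshire 5 the medians were -0.04 for the fast fibre, -0.06 for the skeletal muscle and -0.04 for the endothelial markers, and MYH6 and APOA1 stood at -0.27 and -0.36. Their part in the members' values was not tested.

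Of the genes that build and serve the complexes, 0 passed the test. For assembly factors the median was -0.14 in complex III (4 of 6 below 0), -0.06 in complex IV (14 of 23) and -0.05 in ATP synthase (3 of 5). Without Yorkshire 5 these medians were -0.03, -0.07 and 0.10, and with the gene length offset -0.15, -0.02 and 0.06, so the sign turned for the ATP synthase factors. By edgeR, 1 of 6, 2 of 23 and 0 of 5 had an unadjusted p under 0.05, against 4.44% of all tested genes. These were UQCC2 at -0.34 (edgeR unadjusted p = 0.0270) and, of complex IV, COX17 at -0.37 (0.0433). LRPPRC, the other complex IV factor at that p, lay the other way at 0.27 (edgeR unadjusted p = 0.0293). The assembly factors of highest level were, in their lists, UQCC2, a complex III factor, whose mean was 8.99 ± 0.40 FPKM (SD, n = 6) for Laiwu and 11.2 ± 2.49 FPKM (SD, n = 6) for Yorkshire, and NDUFA4, long counted to complex I and since found in complex IV, at 46.6 ± 5.95 and 45.3 ± 8.12 FPKM. COX17, which delivers copper to complex IV, was at 33.5 ± 2.47 and 42.4 ± 11.03 FPKM, and ATPAF1, a chaperone of the ATP synthase head, at 14.8 ± 3.499 and 11.4 ± 4.47 FPKM. Genes of complex II and cytochrome c had a median of -0.05 (6 of 8 below 0), or 0.001 without Yorkshire 5 and -0.01 with the offset, with SDHB at 79.3 ± 10.9 and 81.7 ± 12.6 FPKM and CYCS, the electron carrier between complexes III and IV, at 48.4 ± 8.83 and 50.6 ± 8.44 FPKM. Transcription factors of respiratory genes lay the other way, with a median of 0.14 and 8 of 9 above 0, or 0.11 without Yorkshire 5 and 0.07 with the offset. The exception was ESRRA, a nuclear receptor that drives mitochondrial genes, at 20.1 ± 3.05 and 21.8 ± 1.71 FPKM. Of the 8 above 0, YY1 was fitted at only 7.0e-05. NRF1, also listed, averaged 0.36 FPKM in each breed and was not tested. Of these 9 tested factors, 0 had an unadjusted p under 0.05 by edgeR.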

How the data were processed

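The members and lists were chosen with earlier results of these data known. Per the series' design text, the authors filtered reads with FastQC 0.11.9 and aligned them with HISAT2 2.2.1 to Sscrofa11.1; the submitters' processing notes also name cutadapt 1.9 and StringTie 1.3.4d. The counting tool, its strand setting and the annotation release were not given in the labels or headers. The deposited table holds raw counts and FPKM values per gene and library, per the file headers. The length of a gene model was computed from its count and FPKM.

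The 11205 of 23271 genes averaging 0.5 FPKM or more were tested with edgeR 4.0.16 (quasi-likelihood, TMM, robust, no covariate), Laiwu minus Yorkshire, with Benjamini-Hochberg adjustment over all of them and a threshold of 0.05; it was first tested on simulated counts. The standard error is the log2 fold change over the root of F. Ratios were compared by exact permutation (at least 10 counts in every library), relations by 100000 permutations. Alternatives were other scalings and filters, a gene length offset, a replicate block and each library left out; the offset without Yorkshire 5 was added after the data were seen. They used limma 3.58.1, DESeq2 1.42.0 and R 4.3.3; figures matplotlib 3.10.9. P-values measure the spread between these libraries. No 2 libraries agreed within sampling noise. Genes given library by library are the 4 COX6A and COX7A forms and, per complex, the 2 of highest FPKM, that of smallest p, and the highest and lowest fold change at 5 FPKM or more. No sequences were printed.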

Additional observations from a re-analysis of the deposited data

Results flagged for a closer look

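Of 80 groups of 6 values examined (35 members and 5 ratios in each breed), 9 held a library set far from the others by Dixon's criterion, where chance gives about 1 in 20 groups. The groups share the same libraries and are not independent, so an excess over that rate was not tested. Yorkshire 5 was the high library in 5 of them. It stood at 28.7 FPKM for COX5B (next 19.7), 3.04 for UQCR11 (next 1.79), 66.6 for ATP5MC1 (next 45.7), 41.3 for ATP5IF1 (next 32.1) and 28.4 for ATP5MC2 (next 24.3). In Laiwu, COX4I2 was high in Laiwu 6 at 2.64 FPKM (next 1.42), UQCRB was high in Laiwu 3 at 58.4 FPKM (next 45.2), and ATP5MC2 was low in Laiwu 5 at 19.8 FPKM (next 22.2). ATP5F1A was low in Yorkshire 2 at 36.5 FPKM (next 44.2).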

How the results depend on the processing

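The number of members called stayed at 0 under all alternatives run, an adjusted p under 0.1 included, and with 1 library left out it was 0 in each case. With 1 library left out the median log2 fold change ran from -0.18 to -0.06 for complex III, from -0.28 to -0.05 for complex IV and from -0.18 to -0.05 for ATP synthase. With the gene length offset and without Yorkshire 5, an alternative added after the data were seen, the complex IV median was 0.00096, and the fold changes of COX7A2, UQCRC1 and COX5A turned to 0.023, 0.0056 and 0.026. With the offset alone UQCRC1, COX5A and ATP5F1A turned to 0.0070, 0.011 and -0.041. With 1 library left out the fold change of COX6A1 ran from -0.12 to 0.16, of UQCRC1 from -0.10 to 0.0079, of COX6C from -0.041 to 0.11, of ATP5PO from -0.028 to 0.10 and of ATP5F1A from -0.0086 to 0.12. The difference in log2 ratio ran from -0.63 to -0.21 for COX6A2 to COX6A1, from -0.42 to -0.030 for COX4I2 to COX4I1, from -0.24 to 0.063 for COX7A1 to COX7A2, from -0.053 to 0.056 for ATP5MC1 to ATP5MC3 and from -0.0037 to 0.13 for ATP5MC2 to ATP5MC3, and the r of COX6A2 with COX7A1 from 0.80 to 0.93. The cause of these turns was not tested. With the replicate number as a block, 0 members were called and the medians were -0.12, -0.17 and -0.13. Same-numbered libraries correlated in their deviations at -0.29 to 0.30, and 0 of 6 correlated best with its own number. Members with few counts (COX4I2, ATP5ME, COX6A1 and COX7A2, means of 69.3 to 193 counts) have the widest errors.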

Other observations

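The table holds 2 further rows whose description names an ATP synthase subunit but whose name field gives no symbol, and which the rule on gene names left out. The peripheral stalk subunit d (ENSSSCG00000032166) averaged 62.7 ± 9.91 FPKM (SD, n = 6) over the Laiwu libraries and 58.5 ± 7.41 FPKM (SD, n = 6) over the Yorkshire ones. Its log2 fold change was 0.08 ± 0.12 (SE; edgeR adjusted p = 0.940). It was highest in Laiwu 3, like its stalk partner ATP5PO. The membrane subunit f (ENSSSCG00000034019) averaged 6.32 ± 0.47 FPKM in Laiwu against 7.28 ± 1.67 FPKM in Yorkshire. Its log2 fold change was -0.23 ± 0.15 (edgeR adjusted p = 0.912), and it was highest in Yorkshire 5.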
